A study of Mus musculus with 9 samples.

Results

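The 54 genes described here encode the machinery of cell division: kinases and cyclins that start mitosis, centromere and kinetochore proteins, the spindle checkpoint, kinesin motors and other spindle proteins, and the proteins that cut the cell in 2. They were taken by gene symbol from a list that was drawn up with earlier results of these data known. The rule itself uses no measured value, and all 54 were found among the 18094 genes of the count table. RNA was sequenced from the uterus of 9 female mice of 13 weeks, 3 in each of 3 groups. Tamoxifen+primidone mice were given tamoxifen, which acts on estrogen receptors as agonist or antagonist according to the tissue, at 1 mg/kg on days 1 to 5 after birth and then primidone at 2 mg/kg per day by intraperitoneal injection from week 10 for 3 weeks. Primidone is used against seizures and blocks TRPM3, an ion channel. Tamoxifen mice had the same neonatal tamoxifen, followed by vehicle in adult life. Control mice had solvent as newborns and vehicle as adults. Tamoxifen given to newborn mice is used as a model of adenomyosis, the growth of endometrial glands and stroma within the myometrium. The samples were uterine tissue and not isolated cells, and the sources used here do not give the stage of the estrous cycle.

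Genes of the mitotic machinery are transcribed late in the cell cycle and are nearly silent in resting cells. Before division they are held down by the DREAM complex, and they are switched on by complexes that contain the MuvB core, B-MYB (Mybl2) and FOXM1, which bind the cell cycle genes homology region (CHR) of their promoters. In the adult uterus, epithelial and stromal cells enter and leave division with estrogen and progesterone over the estrous cycle, so that the level of these transcripts in tissue RNA follows the share of dividing cells as well as the level in each cell. In RNA from whole tissue, fewer dividing cells and less of each transcript per dividing cell cannot be told apart.

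Libraries held from 36393120 to 39958443 counts. All 54 genes passed the filter on low counts, which left 15186 genes for testing, and the total count of a member in a library ran from 8 to 3317. Levels are counts scaled to a common normalized library size (CPM), and fold changes are log2 values with an approximate standard error. A gene was called when its adjusted p in edgeR's quasi-likelihood test was under 0.05. Markers of the uterus were present in every library: 9 epithelial markers summed to 2900 to 4270 CPM, 8 stromal markers to 8890 to 12000 CPM and 8 smooth muscle markers to 5670 to 11800 CPM. Tamoxifen+primidone replicate 1 stood apart from the other 2 libraries of its group, with the lowest level of the 3 for all 54 genes. Counts of called mitotic genes are given with and without it.

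Summed over all 54 genes, the mitotic transcripts reached 271, 777 and 687 CPM in tamoxifen+primidone libraries, 354, 259 and 280 CPM in tamoxifen libraries and 780, 868 and 1060 CPM in control libraries. The tamoxifen libraries and tamoxifen+primidone replicate 1 were low. Tamoxifen+primidone replicates 2 and 3 both lay below the lowest control library, replicate 2 by little and not when Ncapg, described further on, was left out. The median member stood at −1.86, −0.17 and −0.49 in the tamoxifen+primidone libraries on the log2 scale relative to the control mean, at −1.51, −1.86 and −1.89 in the tamoxifen libraries and at −0.18, −0.03 and 0.24 in the control libraries. Over all 15186 genes tested, the same median lay within 0.01 of 0 in every library. Per length, the median member had 2.74 FPKM (fragments scaled by transcript length and by library size) in tamoxifen+primidone libraries, 1.39 FPKM in tamoxifen libraries and 4.04 FPKM in control libraries, so that these are transcripts of modest level in the adult uterus.

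**Figure D1:**
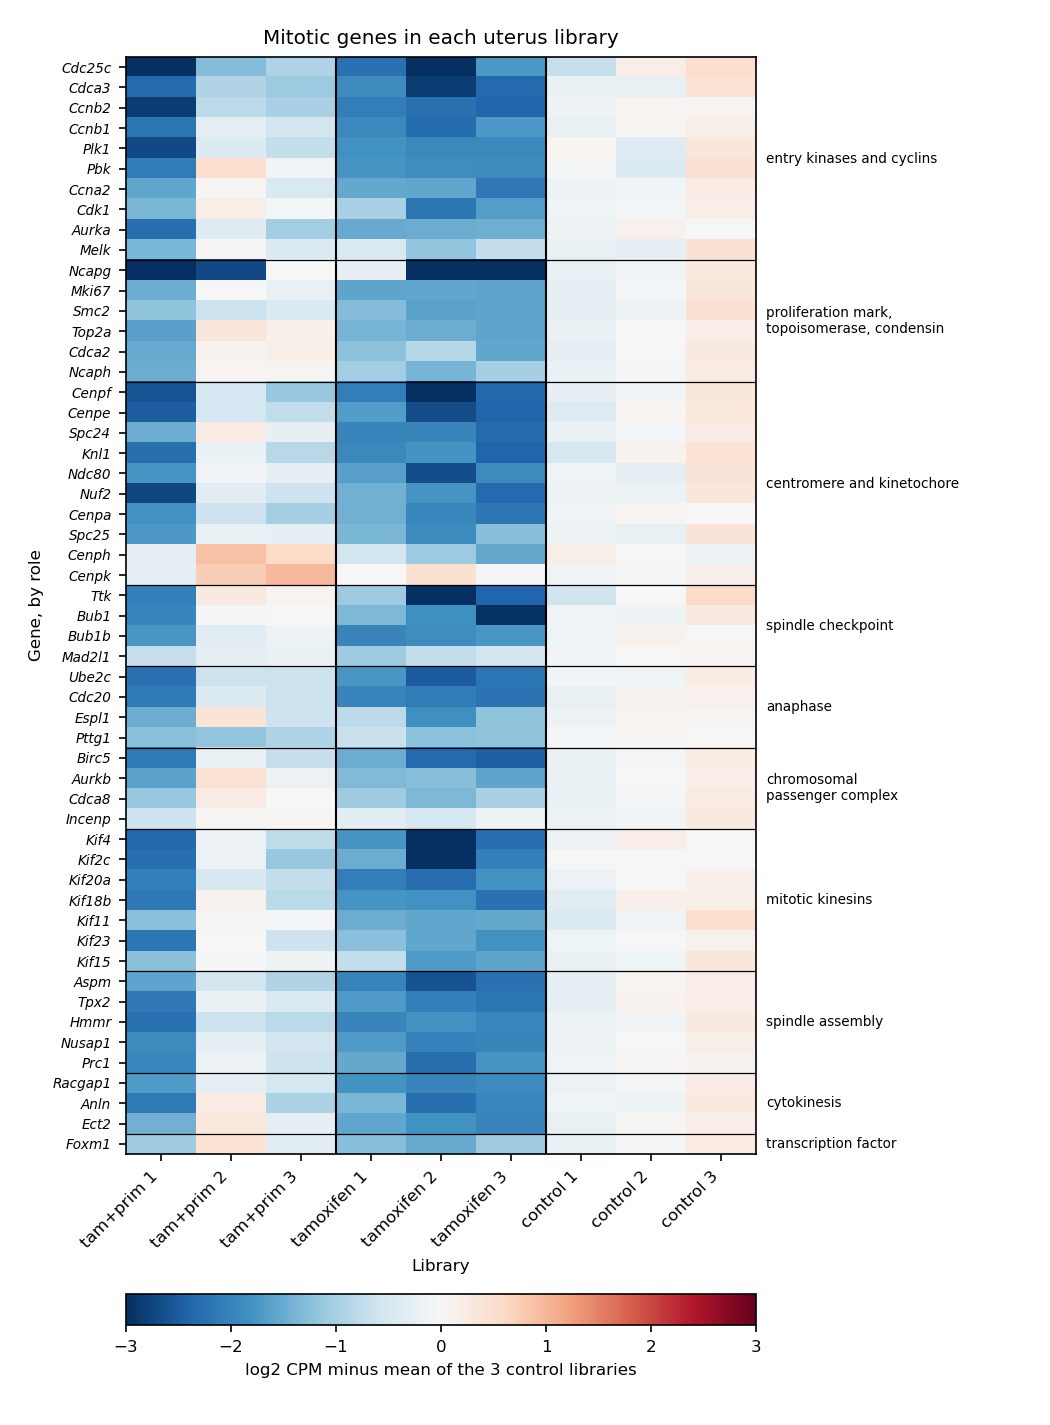
Log2 CPM of the 54 mitotic genes (rows, grouped by role) in each of the 9 libraries (columns), relative to the mean of the 3 control libraries; blue is below and red above the control mean, and the scale ends at 3 in either direction. The 3 tamoxifen libraries and tamoxifen+primidone replicate 1 are blue for most genes. Tamoxifen+primidone replicates 2 and 3 are closer to the control libraries, replicate 3 less so, with Ncapg as the row that differs most from this pattern.

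The comparison of tamoxifen with control mice addressed how the adenomyosis model changes the uterus. Mitotic transcripts had lower levels in tamoxifen mice along nearly the whole list: 53 of 54 genes had a negative log2 fold change, with a median of −1.85 against 0.00 over all genes tested. edgeR called 17 of the 54 lower, against 0.961% of all genes tested, and called 0 higher. For 52 of the 54 genes each tamoxifen library lay below each control library, against 13.4% of all genes tested; the exceptions were Cenpk and Incenp. The called genes were 1.71 to 5.52-fold lower in tamoxifen mice and came from 8 of the 10 roles. The number called rested on single libraries. With any of the 6 tamoxifen or control libraries left out it was 1 or 2, with Aspm called each time. In those fits 13 to 54 of all genes tested were called lower, and the median log2 fold change of the list stayed between −1.97 and −1.72. The tamoxifen+primidone libraries do not enter the means compared. They take part through the estimate of the spread, the filter on low counts and the normalization. Without tamoxifen+primidone replicate 1 the number of members called was 47 (1.77% of all genes tested). Without replicate 2 it was 32 (187 of the 15349 genes tested), and from the 6 compared libraries alone it was 46 (2.15%). DESeq2 called 48 of the 54 lower, against 3.26% of the genes in its table.

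**Figure D2:**
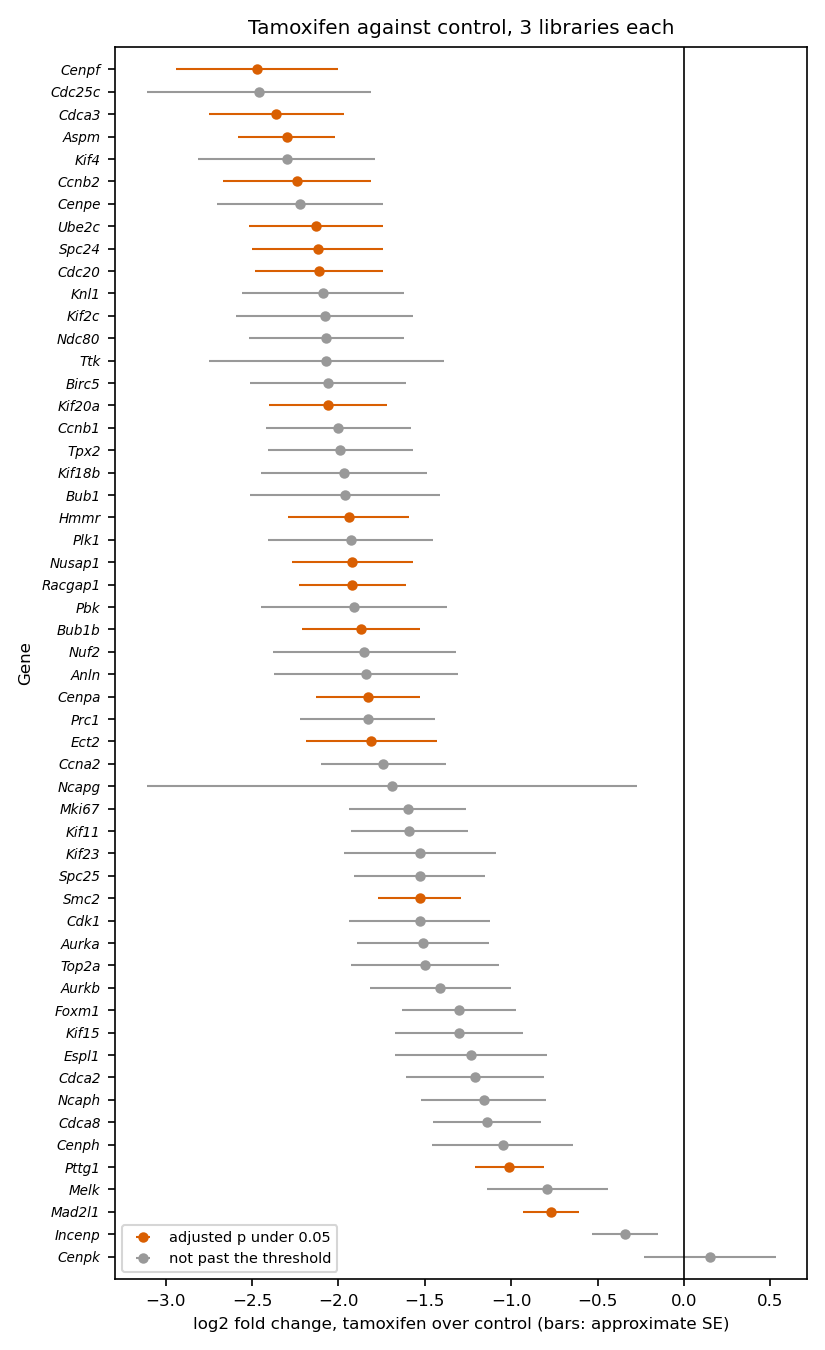
Log2 fold change of each of the 54 genes in tamoxifen over control mice, 3 libraries each, with bars for the approximate standard error; orange points had an edgeR adjusted p under 0.05 and grey points did not. 53 of the 54 genes lie left of 0, the exception being Cenpk, most of them near the median of −1.85.

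Aspm, which encodes a protein that focuses microtubules at the spindle poles, had the smallest adjusted p of the list. Its level was 4.71, 9.78 and 7.55 CPM in tamoxifen+primidone libraries, 3.49, 2.26 and 2.96 CPM in tamoxifen libraries and 11.7, 14.9 and 16.5 CPM in control libraries. The tamoxifen and control libraries did not overlap, and Aspm was 4.93-fold lower in tamoxifen mice (log2 fold change −2.30 ± 0.28, edgeR adjusted p = 0.0086). Smc2, a core subunit of the condensin complex that compacts chromosomes, had 18.5, 27.1 and 30.9 CPM in tamoxifen+primidone libraries, 17.4, 13.9 and 14.1 CPM in tamoxifen libraries and 34.6, 38.2 and 58.5 CPM in control libraries. It was 2.90-fold lower in tamoxifen mice (log2 fold change −1.53 ± 0.24, edgeR adjusted p = 0.024). Cenpf, whose product sits at the outer kinetochore, had the most negative fold change of the 54, with 3.39, 14.2 and 9.33 CPM in tamoxifen+primidone libraries, 4.83, 2.48 and 3.99 CPM in tamoxifen libraries and 17.2, 19.2 and 26 CPM in control libraries. Each control library held several times the level of any tamoxifen library (log2 fold change −2.47 ± 0.47, edgeR adjusted p = 0.044).

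The promoters of 44 of the 54 genes were in the RefSeq table used here (GRCm38.p6, 250 bases before to 50 after each start), a different build from the counts; Foxm1, Cdc25c, Cdca2, Incenp, Aurkb, Spc24, Kif20a, Pbk, Tpx2 and Ccna2 were not among them. The 6 sequences below belong to the 6 called genes with the smallest p in tamoxifen against control mice among those with the CHR motif TTTGAA, and are shown because this is the element through which the DREAM and MuvB complexes are known to act. Each is 30 bases read 5′ to 3′ along the gene's strand, with the motif in capitals.
Aspm (chr1:139454767-139454796, + strand): ggaggcgcgataTTTGAAccgagcaaaagc
Smc2 (chr4:52439235-52439264, + strand): ctcgcgccgaaaTTCAAAggaacagttccg
Cenpa (chr5:30666890-30666919, + strand): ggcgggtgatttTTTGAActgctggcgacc
Racgap1 (chr15:99651634-99651663, − strand): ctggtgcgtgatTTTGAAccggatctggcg
Cdca3 (chr6:124830194-124830223, + strand): cgtggagggaagTTTGAAactccgggcttt
Hmmr (chr11:40733412-40733441, − strand): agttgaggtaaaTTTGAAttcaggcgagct
In Smc2 the motif is on the other strand, so it reads TTCAAA here. The match began 7 bases into the transcript in Aspm, 27 in Smc2, 17 in Cenpa, 6 in Racgap1, 31 in Cdca3 and 9 in Hmmr, counting the start as 1.

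Searched on both strands, TTTGAA occurred in 32 of the 44 promoters (72.7%), against 20.2% of the 27025 promoters in the table and 14.9% of those of the 11958 genes tested that had a promoter there. The matches clustered at the start: 30 of the 44 (68.2%) had a match within 50 bases of it on either side, against 3.95% of the promoters of genes tested. Of 68 other mitosis genes, 58 had a promoter in the table and 30 of these held the motif (51.7%). It occurred in 3 of 17 promoters of DNA replication genes (17.6%) and in 2 of 16 promoters of kinesins that work outside mitosis (12.5%). The CCAAT box, also searched on both strands and not overlapping the CHR in letters, was in 32 of the 44 promoters (72.7%), against 42.4% for the genes tested, and in 12 of 17 of the DNA replication genes (70.6%). The variant TTCGAA was in 3 of the 44 (6.82%), against 2.39%. The 32 members with TTTGAA had a median log2 fold change of −1.86 in tamoxifen over control mice, with 12 called. The 12 without it (Ccnb1, Melk, Ncaph, Cenpe, Cenph, Cenpk, Nuf2, Bub1, Mad2l1, Pttg1, Birc5 and Nusap1) had a median of −1.50, with 3 called. Divided by the CCAAT box instead, the 32 members with it had a median of −1.85, with 12 called. The 12 without a CCAAT box had a median of −1.85 as well, with 3 called. The 2 splits overlap, since 27 of the 44 promoters held both motifs. The called genes Mad2l1, Pttg1 and Nusap1 lacked both. The calls therefore cannot tell the 2 motifs apart. These matches describe letters in a window of the reference genome; binding was not measured.

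Among the kinases and cyclins of mitotic entry, all 10 genes had negative fold changes in tamoxifen over control mice (median −1.92) and 2 were called. Cdk1, the kinase that drives entry into mitosis, had 7.16, 21.3 and 17.8 CPM in tamoxifen+primidone libraries, 9.45, 4.14 and 5.9 CPM in tamoxifen libraries and 17, 17.8 and 21.5 CPM in control libraries. All tamoxifen libraries lay below all control libraries (log2 fold change −1.53 ± 0.41), and the edgeR adjusted p was 0.1. Its partner cyclin B1 (Ccnb1) had 3.7, 14.1 and 11.4 CPM in tamoxifen+primidone libraries, 4.34, 3.34 and 5.04 CPM in tamoxifen libraries and 14.3, 17.5 and 19 CPM in control libraries. The groups were again apart (log2 fold change −2.0 ± 0.42), with an edgeR adjusted p of 0.051, just above the threshold. Cyclin B2 (Ccnb2), at 2.4, 10.2 and 8.9 CPM in tamoxifen+primidone libraries, 4.11, 3.7 and 3.32 CPM in tamoxifen libraries and 15.7, 18.4 and 18.5 CPM in control libraries, was lower in tamoxifen mice (log2 fold change −2.24 ± 0.43, edgeR adjusted p = 0.043). So was Cdca3, a trigger of mitotic entry that helps to remove the Cdk1 inhibitor Wee1, at 2.61, 7.12 and 6.24 CPM in tamoxifen+primidone libraries, 3.57, 1.82 and 2.63 CPM in tamoxifen libraries and 11.7, 11.5 and 18.2 CPM in control libraries (log2 fold change −2.36 ± 0.39, edgeR adjusted p = 0.025). Polo-like kinase 1 (Plk1), which acts at centrosomes and kinetochores, had 2.92, 14.5 and 11.7 CPM in tamoxifen+primidone libraries, 5.44, 5.02 and 5.04 CPM in tamoxifen libraries and 20.2, 14.7 and 24.3 CPM in control libraries, with no overlap between tamoxifen and control libraries (log2 fold change −1.93 ± 0.48, edgeR adjusted p = 0.09). Cdc25c, a phosphatase that activates Cdk1, had a log2 fold change of −2.46 ± 0.65, cyclin A2 (Ccna2) −1.74 ± 0.36, Aurka, the centrosome kinase, −1.51 ± 0.38, and the kinase Pbk −1.91 ± 0.54; none of these 4 was called. Melk, a kinase of dividing cells, stood out for a small difference, with 4.16, 11.1 and 8.2 CPM in tamoxifen+primidone libraries, 7.99, 4.77 and 6.62 CPM in tamoxifen libraries and 9.49, 9.16 and 15 CPM in control libraries. Its tamoxifen libraries were below its control libraries but close to them (log2 fold change −0.79 ± 0.35).

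Mki67, the standard proliferation marker Ki-67, had 25.3, 71.1 and 60.9 CPM in tamoxifen+primidone libraries, 23.6, 24.2 and 23.7 CPM in tamoxifen libraries and 58.7, 68.7 and 89.5 CPM in control libraries. The tamoxifen libraries were tightly grouped and well below the control libraries, at 23.8 ± 0.338 against 72.3 ± 15.7 CPM (SD, n = 3 each; log2 fold change −1.60 ± 0.34), with an edgeR adjusted p of 0.06. Top2a, the topoisomerase that untangles sister chromatids, had 18.2, 72.7 and 62.5 CPM in tamoxifen+primidone libraries, 21.4, 20 and 18.6 CPM in tamoxifen libraries and 48.6, 56.7 and 64.6 CPM in control libraries. Again no tamoxifen library reached a control library (log2 fold change −1.50 ± 0.43, edgeR adjusted p = 0.13). Of the other chromosome condensation genes, Smc2 was called and Ncaph (−1.16 ± 0.36) and Cdca2 (−1.21 ± 0.40) were not. Ncapg is described further on because its libraries did not follow the others.

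Of the 10 centromere and kinetochore genes, 9 had negative fold changes in tamoxifen over control mice (median −1.96) and 3 were called. Besides Cenpf these were Cenpa, the histone H3 variant that marks the centromere, and Spc24, a subunit of the NDC80 complex that grips microtubules. Cenpa had 3, 6.87 and 5.28 CPM in tamoxifen+primidone libraries, 3.93, 2.73 and 2.35 CPM in tamoxifen libraries and 9.88, 11.4 and 10.8 CPM in control libraries, so that every control library held more than any tamoxifen library (log2 fold change −1.83 ± 0.30, edgeR adjusted p = 0.024). Spc24 had 2.92, 9.85 and 6.99 CPM in tamoxifen+primidone libraries, 2.08, 2.07 and 1.64 CPM in tamoxifen libraries and 7.24, 8.03 and 9.87 CPM in control libraries, with the same separation of tamoxifen and control libraries (log2 fold change −2.12 ± 0.38, edgeR adjusted p = 0.032). The other NDC80 subunits had log2 fold changes of −2.07 ± 0.45 (Ndc80), −1.85 ± 0.53 (Nuf2) and −1.53 ± 0.38 (Spc25), the kinetochore scaffold Knl1 −2.09 ± 0.47 and the kinetochore motor Cenpe −2.22 ± 0.48, none of them called. A pair of subunits of the inner kinetochore network that sits on the centromere all through the cell cycle differed from these. Cenpk had 1.16, 2.43 and 2.89 CPM in tamoxifen+primidone libraries, 1.46, 1.99 and 1.38 CPM in tamoxifen libraries and 1.33, 1.39 and 1.62 CPM in control libraries, with tamoxifen and control libraries intermixed (log2 fold change 0.15 ± 0.38, edgeR adjusted p = 0.88). Cenph had 1.29, 2.91 and 2.36 CPM in tamoxifen+primidone libraries, 1.05, 0.717 and 0.511 CPM in tamoxifen libraries and 1.78, 1.58 and 1.38 CPM in control libraries, with the tamoxifen libraries below the control libraries and tamoxifen+primidone replicates 2 and 3 above them (tamoxifen over control, log2 fold change −1.05 ± 0.41, edgeR adjusted p = 0.22). Both are at the low end of the count range, at 45 to 115 counts in a library for Cenpk and 20 to 115 for Cenph. Other members had lower counts in some libraries, down to 8 for Cdc25c and 15 for Ttk. The part of counting error in the values of Cenpk and Cenph was not tested.

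All 4 spindle checkpoint genes had negative fold changes in tamoxifen over control mice and 2 were called. Bub1b (BubR1), part of the checkpoint complex that holds back anaphase, had 4.4, 11.7 and 13.4 CPM in tamoxifen+primidone libraries, 3.75, 4.05 and 4.37 CPM in tamoxifen libraries and 13.6, 16 and 15 CPM in control libraries. The tamoxifen libraries were all low (log2 fold change −1.87 ± 0.34, edgeR adjusted p = 0.033). Mad2l1 (Mad2), another part of that complex, differed by less, at 22.1, 29.2 and 31.6 CPM in tamoxifen+primidone libraries, 17.2, 21.8 and 24.4 CPM in tamoxifen libraries and 33.9, 36.1 and 38 CPM in control libraries, but steadily enough to be called (log2 fold change −0.77 ± 0.16, edgeR adjusted p = 0.043). Bub1 (−1.96 ± 0.55) and Ttk (−2.07 ± 0.68), kinases that recruit the checkpoint to kinetochores, had larger differences but also larger spread, and were not called.

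In the anaphase group, 3 of 4 genes were called lower in tamoxifen mice. Cdc20, which activates the anaphase-promoting complex and is the target of the checkpoint, had 5.89, 19.4 and 16.6 CPM in tamoxifen+primidone libraries, 6.6, 6.01 and 5.52 CPM in tamoxifen libraries and 22.2, 28 and 28.2 CPM in control libraries (log2 fold change −2.11 ± 0.37, edgeR adjusted p = 0.032). Ube2c, the ubiquitin-conjugating enzyme that works with that complex and the most abundant of the 54 per length in control mice (28.3 FPKM), had 5.66, 16.9 and 17.1 CPM in tamoxifen+primidone libraries, 7.96, 4.69 and 5.83 CPM in tamoxifen libraries and 25.1, 24.2 and 31.4 CPM in control libraries (log2 fold change −2.13 ± 0.39, edgeR adjusted p = 0.041). For both, the 3 tamoxifen libraries and tamoxifen+primidone replicate 1 formed the low end. Pttg1 (securin), the inhibitor of separase that is destroyed at anaphase, had 4.19, 4.38 and 5.31 CPM in tamoxifen+primidone libraries, 6.34, 4.28 and 4.34 CPM in tamoxifen libraries and 9.69, 10.3 and 10.2 CPM in control libraries. Its tamoxifen libraries were all below its control libraries (log2 fold change −1.01 ± 0.20, edgeR adjusted p = 0.041). Espl1, separase itself, had a log2 fold change of −1.23 ± 0.44 and was not called.

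No gene of the chromosomal passenger complex, which corrects wrong attachments of chromosomes to the spindle, was called in tamoxifen against control mice. Its kinase Aurkb had a log2 fold change of −1.41 ± 0.41, borealin (Cdca8) −1.14 ± 0.31 and survivin (Birc5) −2.06 ± 0.45. Birc5 had 2.3, 8.87 and 6.31 CPM in tamoxifen+primidone libraries, 3.59, 1.99 and 1.84 CPM in tamoxifen libraries and 8.96, 9.96 and 12 CPM in control libraries, with no overlap between tamoxifen and control libraries and an edgeR adjusted p of 0.057. The scaffold Incenp differed little between libraries, at 21.3, 33.3 and 33.9 CPM in tamoxifen+primidone libraries, 26.4, 22.5 and 29.1 CPM in tamoxifen libraries and 28.9, 30.6 and 39.4 CPM in control libraries. Tamoxifen replicate 3 lay above control replicate 1 (log2 fold change −0.34 ± 0.19, edgeR adjusted p = 0.39).

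Of the 7 mitotic kinesins, all had negative fold changes in tamoxifen over control mice (median −1.97, from −2.30 for Kif4 to −1.30 for Kif15), and all 7 separated the tamoxifen from the control libraries. Kif20a, which works in the central spindle and cytokinesis, was called, with 5.84, 17.1 and 14.6 CPM in tamoxifen+primidone libraries, 5.7, 4.91 and 6.8 CPM in tamoxifen libraries and 21.5, 24.2 and 27 CPM in control libraries (log2 fold change −2.06 ± 0.34, edgeR adjusted p = 0.027). Kif23, a part of centralspindlin, had 4.52, 20.3 and 13.2 CPM in tamoxifen+primidone libraries, 8.58, 6.95 and 5.8 CPM in tamoxifen libraries and 18.5, 20.7 and 22.3 CPM in control libraries, with wider spread (log2 fold change −1.53 ± 0.44, edgeR adjusted p = 0.12). Kif11, which pushes the spindle poles apart, had −1.59 ± 0.34, Kif2c, which takes microtubules apart at centromeres, −2.08 ± 0.51, and Kif18b, which shortens astral microtubules, −1.97 ± 0.48. None of these 3 was called.

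Spindle assembly genes had the narrowest range of fold changes among roles with more than 3 genes, from −2.30 (Aspm) to −1.83 (Prc1) in tamoxifen over control mice, and 3 of 5 were called. Nusap1, which bundles spindle microtubules, had 3.34, 10.4 and 8.68 CPM in tamoxifen+primidone libraries, 3.85, 3.09 and 3.17 CPM in tamoxifen libraries and 11.4, 12.6 and 14.3 CPM in control libraries (log2 fold change −1.92 ± 0.35, edgeR adjusted p = 0.033). Hmmr, a spindle pole protein also known as a hyaluronan receptor, had 2.46, 7.42 and 6.59 CPM in tamoxifen+primidone libraries, 2.9, 3.31 and 2.99 CPM in tamoxifen libraries and 10.5, 11 and 14 CPM in control libraries (log2 fold change −1.94 ± 0.35, edgeR adjusted p = 0.032). In both, the tamoxifen libraries were close together and below every control library. Tpx2, the activator of Aurora A on the spindle, had 5.04, 19.3 and 16.5 CPM in tamoxifen+primidone libraries, 6.78, 5.41 and 4.91 CPM in tamoxifen libraries and 18.2, 24 and 25.5 CPM in control libraries (log2 fold change −1.99 ± 0.42, edgeR adjusted p = 0.058). Prc1, which crosslinks the midzone of the anaphase spindle, had 6.28, 21.8 and 15.8 CPM in tamoxifen+primidone libraries, 8.42, 5.07 and 7.13 CPM in tamoxifen libraries and 22.2, 25 and 26.3 CPM in control libraries (log2 fold change −1.83 ± 0.39, edgeR adjusted p = 0.056). These last 2 missed the threshold although their tamoxifen and control libraries did not overlap.

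Of the 3 cytokinesis genes, 2 were called lower in tamoxifen mice. Racgap1, the partner of Kif23 in centralspindlin, had 7.99, 21.5 and 18 CPM in tamoxifen+primidone libraries, 7.4, 6.51 and 6.85 CPM in tamoxifen libraries and 22.8, 24.8 and 30.8 CPM in control libraries (log2 fold change −1.92 ± 0.31, edgeR adjusted p = 0.024). Ect2, the exchange factor that activates RhoA at the division plane, had 3.9, 13.3 and 8.83 CPM in tamoxifen+primidone libraries, 3.59, 3.01 and 2.63 CPM in tamoxifen libraries and 9.15, 11.1 and 12.3 CPM in control libraries (log2 fold change −1.81 ± 0.38, edgeR adjusted p = 0.049). Both had tight tamoxifen libraries below all control libraries. Anln (anillin), which organizes the contractile ring, had 4.89, 25.3 and 10.9 CPM in tamoxifen+primidone libraries, 8.19, 4.41 and 5.42 CPM in tamoxifen libraries and 19.4, 19.1 and 26 CPM in control libraries, with more spread (log2 fold change −1.84 ± 0.53, edgeR adjusted p = 0.12). Foxm1, the transcription factor that activates many of these genes, had 5.56, 15.6 and 9.46 CPM in tamoxifen+primidone libraries, 4.83, 4.05 and 5.57 CPM in tamoxifen libraries and 10.3, 11.3 and 14 CPM in control libraries. Its tamoxifen libraries were all below its control libraries, by less than for most of the other 53 genes (log2 fold change −1.30 ± 0.33, edgeR adjusted p = 0.085).

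The comparison of tamoxifen+primidone with tamoxifen mice addressed the effect of primidone in the model. It shares the tamoxifen libraries with the comparison above, so a low level there enters both. Over all 3 libraries per group edgeR called 0 of the 54 genes, as it called 0.0% of all genes higher and 2 lower. An unadjusted edgeR p under 0.05 was found for 40 of the 54. The share of all genes tested under that threshold was not computed, so this count cannot be judged against it. The median log2 fold change was 1.13, with 53 of 54 positive, against 0.02 over all genes tested. For 9 genes every tamoxifen+primidone library lay above every tamoxifen library (Mki67, Smc2, Cenph, Spc24, Bub1b, Kif11, Aspm, Ect2 and Racgap1), against 8.08% of all genes tested. DESeq2 called 21 of the 54 higher, against 1.17% of the genes in its table.

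Tamoxifen+primidone replicate 1 had levels of a tamoxifen library and the other 2 did not. It lay within the range of the tamoxifen libraries for 29 of the 54 genes (53.7%, against 39.5% of all genes tested), below it for 16 (29.6%, against 29.1%) and above it for 9 (16.7%, against 31.4%). It lay below all control libraries for all 54, against 33.5% of all genes tested. Below all control libraries were 25 genes in replicate 2 (46.3%, against 33.8% of all genes tested) and 38 in replicate 3 (70.4%, against 34.1%). Replicate 2 lay above all tamoxifen libraries for 52 genes and replicate 3 for 53; both did so for 52, the exceptions being Ncapg and Pttg1, against 12.7% of all genes tested. With replicate 1 left out, edgeR called 25 of the 54 higher in tamoxifen+primidone than in tamoxifen mice, against 0.404% of all genes tested, and the median log2 fold change was 1.48. Without replicate 2 the median was 0.72 and without replicate 3 it was 1.02, with 0 called in both. With tamoxifen replicate 1 left out, 17 of the 54 had every tamoxifen+primidone library above the other 2 tamoxifen libraries, against 12.4% of all genes tested.

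Values with and without replicate 1 are given here for genes of several roles. With all 9 libraries, Aspm (edgeR adjusted p = 0.11) and Spc24 (edgeR adjusted p = 0.12) had the smallest adjusted p of the 54. Top2a had 18.2 CPM in tamoxifen+primidone replicate 1, below every tamoxifen library. It had 72.7 and 62.5 CPM in replicates 2 and 3, at or above its control levels. Over 3 libraries its log2 fold change against tamoxifen mice was 1.35 ± 0.43 (edgeR adjusted p = 0.23), and without replicate 1 it was 1.75 ± 0.13 (edgeR adjusted p = 0.0027). Mki67 averaged 52.4 ± 24.1 CPM in tamoxifen+primidone mice and 23.8 ± 0.338 CPM in tamoxifen mice (SD, n = 3 each), a log2 fold change of 1.14 ± 0.34 (edgeR adjusted p = 0.21), and 1.47 ± 0.16 (edgeR adjusted p = 0.01) without replicate 1. Spc24 had the most positive fold change of the 54, 1.77 ± 0.38 (edgeR adjusted p = 0.12), and 2.12 ± 0.24 (edgeR adjusted p = 0.01) without replicate 1. Replicate 1 of Mki67 and Spc24 was above the tamoxifen libraries, if only a little.

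Aspm, the gene most clearly lower in tamoxifen mice, was at 1.34 ± 0.28 in tamoxifen+primidone over tamoxifen mice (edgeR adjusted p = 0.11), with each tamoxifen+primidone library above each tamoxifen library, and at 1.57 ± 0.24 (edgeR adjusted p = 0.023) without replicate 1. Cdc20 was at 1.21 ± 0.36 (edgeR adjusted p = 0.21), and at 1.57 ± 0.15 (edgeR adjusted p = 0.0094) without replicate 1. Bub1b was at 1.27 ± 0.34 (edgeR adjusted p = 0.17), and at 1.62 ± 0.16 (edgeR adjusted p = 0.0094) without it. Replicate 1 had the lowest level of its group for all 54 genes, so leaving it out raises each of these fold changes. The role medians in tamoxifen+primidone over tamoxifen mice ran from 0.91 for the chromosome condensation group to 1.40 for the checkpoint. Small differences were those of Incenp (0.18 ± 0.19), Melk (0.28 ± 0.35), Mad2l1 (0.39 ± 0.16), Cenpk (0.43 ± 0.37) and Aurka (0.46 ± 0.37), and the single negative value was that of Pttg1 (−0.11 ± 0.20, edgeR adjusted p = 0.86).

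Tamoxifen+primidone mice were also compared with control mice, a comparison that shares libraries with both others. Of the 54 genes 52 had a negative log2 fold change, with a median of −0.70 against 0.01 over all genes tested, and 1 was called lower, against 3.21% of all genes tested. Every tamoxifen+primidone library lay below every control library for 24 genes, against 15.1% of all genes tested. Without tamoxifen+primidone replicate 1 the median was −0.29, 40 genes were negative and 2 were called lower (Ccnb2 and Pttg1), against 2.1% of all genes tested. Without control replicate 1, control replicate 3 or tamoxifen+primidone replicate 2 the number called was 0. Without tamoxifen+primidone replicate 2, the other 2 libraries of that group lay below every control library for 38 genes, against 19.8% of all genes tested.

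The called gene was Pttg1, at 4.19, 4.38 and 5.31 CPM in tamoxifen+primidone libraries and 9.69, 10.3 and 10.2 CPM in control libraries. It was 2.18-fold lower in tamoxifen+primidone mice (log2 fold change −1.12 ± 0.20, edgeR adjusted p = 0.016). Securin thus had about the same low level in all 6 libraries of mice given tamoxifen, including tamoxifen+primidone replicates 2 and 3. Those 2 libraries also lay below all control libraries for 23 further genes, among them Ccnb1, Ccnb2, Cdca3, Plk1, Aurka, Smc2, Cenpa, Cenpf, Cdc20, Ube2c, Kif20a, Hmmr and Aspm; with Pttg1 these are 24 of the 54, against 21.1% of all genes tested. For others they did not: replicate 2 lay above all control libraries for Pbk, Top2a, Cenph, Cenpk, Espl1, Aurkb, Cdca8, Ect2 and Foxm1, and replicate 3 for Cenph and Cenpk. These are 9 and 2 of the 54 genes (16.7% and 3.7%), where 32.9% and 34.7% of all genes tested lay above all control libraries in the same 2 libraries. Foxm1, for example, had 15.6 and 9.46 CPM in these libraries and 10.3, 11.3 and 14 CPM in control libraries. Without replicate 1 the log2 fold change over control was −0.88 for Ccnb2, −1.04 for Cdca3 and −0.82 for Cenpa, but 0.26 for Top2a, 0.19 for Pbk and 0.88 for Cenpk.

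Ncapg, a regulatory subunit of condensin, did not follow the other members. It had 1.76, 7.22 and 47.9 CPM in tamoxifen+primidone libraries, 40.2, 2.01 and 2.43 CPM in tamoxifen libraries and 40.7, 44.8 and 58.4 CPM in control libraries. Tamoxifen replicate 1 and tamoxifen+primidone replicate 3 were at control levels and the other 4 libraries of mice given tamoxifen were many times lower, a division that follows no group. Its log2 fold changes were accordingly uncertain, −1.69 ± 1.42 in tamoxifen over control mice (edgeR adjusted p = 0.59) and 0.35 ± 1.40 in tamoxifen+primidone over tamoxifen mice (edgeR adjusted p = 0.94). Ncaph, which belongs to the same condensin complex, was low in all tamoxifen libraries. Ncapg made up 0.65% to 11.4% of the members' counts in a library. Without it the members summed to 269, 770 and 639 CPM in tamoxifen+primidone libraries, 313, 257 and 277 CPM in tamoxifen libraries and 739, 823 and 999 CPM in control libraries. Tamoxifen+primidone replicate 2 then lay above control replicate 1, where with Ncapg it lay just below. The order of the libraries was otherwise the same.

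In the RefSeq gene order (GRCm38.p6), Fam184b lies next to Ncapg, and the same libraries were high there. Fam184b had 8.25, 7.78 and 23.9 CPM in tamoxifen+primidone libraries, 24.2, 12.3 and 11.7 CPM in tamoxifen libraries and 23.5, 22 and 32.3 CPM in control libraries (Pearson r with Ncapg 0.88 on log2 CPM over 9 libraries). Lcorl on the other side did not share this (r = 0.16), nor did Med28 (r = 0.39) and Lap3 (r = 0.51). These neighbours were looked up after the values of Ncapg had been seen. The sources used here do not give the strand setting of the counting, so reads from overlapping or antisense transcripts cannot be told apart.

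**Figure D3:**
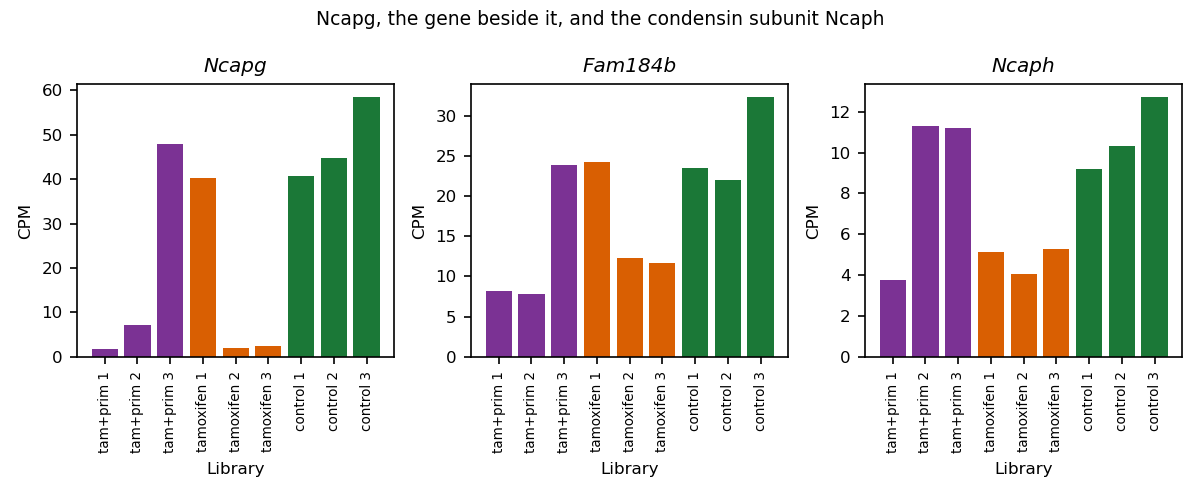
Level in CPM of Ncapg, of its neighbour Fam184b and of the condensin subunit Ncaph in each of the 9 libraries (bars; purple tamoxifen+primidone, orange tamoxifen, green control). Ncapg and Fam184b are high in tamoxifen+primidone replicate 3 and tamoxifen replicate 1, and Ncaph is low in all 3 tamoxifen libraries.

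Apart from such exceptions the genes moved together across the 9 libraries. The Pearson correlation of each gene with the mean of the other 53 had a median of 0.96, and 47 of the 54 reached 0.9, a level that 0.665% of all genes tested reached against the mean of the members. The libraries are few and fall into groups, so these values are a description. The lowest were those of Cenpk (0.26), Cenph (0.73), Pttg1 (0.73), Ncapg (0.76), Incenp (0.83), Mad2l1 (0.87) and Melk (0.89). Outside the list, the 10 genes with the highest correlation with the members' mean were Tacc3 (0.993), Dlgap5 (0.99), Iqgap3, Arhgap11a, Ckap2, Gtse1, Prr11, Ckap2l, Cip2a and Nek2 (0.974). Of these, 7 belong to the list of other mitosis genes described next.

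Of 68 other genes of mitosis, 62 had a negative log2 fold change in tamoxifen over control mice, with a median of −0.94. edgeR called 10 lower, against 0.961% of all genes tested, among them Spag5, Kif20b, Ckap2, Ckap2l, Cep55, Cit, Dlgap5, Ncapd2 and Wee1. For 52 of the 68 each tamoxifen library lay below each control library, against 13.4% of all genes tested. Wee1, the kinase that restrains Cdk1, had 13.9, 16.9 and 16.5 CPM in tamoxifen+primidone libraries, 11.1, 10.1 and 10.1 CPM in tamoxifen libraries and 24.8, 23.6 and 24.9 CPM in control libraries. The 3 groups did not overlap, and tamoxifen+primidone replicate 1 lay with the others of its group. Wee1 was lower in tamoxifen than in control mice (log2 fold change −1.23 ± 0.11, edgeR adjusted p = 0.0019) with each library left out in turn, and lower in tamoxifen+primidone than in control mice (−0.63 ± 0.11, edgeR adjusted p = 0.016), although not without control replicate 1 or control replicate 3. In tamoxifen+primidone over tamoxifen mice it was at 0.59 ± 0.11 (edgeR adjusted p = 0.087), and without tamoxifen+primidone replicate 1 it was called higher (0.68 ± 0.11, edgeR adjusted p = 0.033). Spag5 (astrin, a spindle and kinetochore protein) was at −2.1 ± 0.36 in tamoxifen over control mice (edgeR adjusted p = 0.024). Citron kinase (Cit), which acts at the midbody, was at −1.6 ± 0.23 (edgeR adjusted p = 0.016). The calls of Spag5 and Cit were lost without control replicate 1, control replicate 3 or tamoxifen replicate 1, among others. In tamoxifen+primidone over tamoxifen mice Spag5 was at 1.33 ± 0.35 (edgeR adjusted p = 0.17), or 1.65 ± 0.26 (edgeR adjusted p = 0.028) without tamoxifen+primidone replicate 1. Cit was at 1.25 ± 0.23 (edgeR adjusted p = 0.086), or 1.34 ± 0.25 (edgeR adjusted p = 0.058) without it. Over the whole list 65 of the 68 were positive (median 0.60) and 0 were called. Without tamoxifen+primidone replicate 1, 7 were called higher, against 0.404% of all genes tested.

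DNA replication genes, which are transcribed earlier in the cell cycle, had another pattern. In tamoxifen over control mice 20 of 23 were negative, but the median was −0.26 and edgeR called 0. Relative to the control mean the median gene stood at −0.12, 0.81 and 0.72 in tamoxifen+primidone libraries and at −0.16, −0.28 and −0.14 in tamoxifen libraries on the log2 scale. Tamoxifen+primidone replicates 2 and 3 were thus above the control libraries for this list, where the mitotic list in the same 2 libraries was at or below them. All 23 were positive in tamoxifen+primidone over tamoxifen mice (median 0.77, 0 called) and over control mice (median 0.55, 1 called higher, against 2.14% of all genes tested). The called gene was Pola1, a subunit of DNA polymerase alpha, at 16, 19.6 and 18.5 CPM in tamoxifen+primidone libraries, 12.5, 9.68 and 11.2 CPM in tamoxifen libraries and 10.2, 11.9 and 11.6 CPM in control libraries (over control, log2 fold change 0.68 ± 0.14, edgeR adjusted p = 0.025). Mcm3, of the replicative helicase, had 27.2, 53 and 50.3 CPM in tamoxifen+primidone libraries, 23.8, 19.4 and 21.2 CPM in tamoxifen libraries and 25.7, 19.8 and 25.4 CPM in control libraries (over control, 0.88 ± 0.23, edgeR adjusted p = 0.057, and 1.13 ± 0.14, edgeR adjusted p = 0.0071, without tamoxifen+primidone replicate 1). Over tamoxifen mice Mcm3 was at 1.02 ± 0.23 (edgeR adjusted p = 0.13), and at 1.26 ± 0.14 (edgeR adjusted p = 0.01) without that library. Without tamoxifen+primidone replicate 1, 12 of the 23 were called higher than in tamoxifen mice, against 0.404% of all genes tested. In that setting 12 were called higher than in control mice, against 1.73% of all genes tested. The difference between the replication and mitotic lists was not tested.

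**Figure D4:**
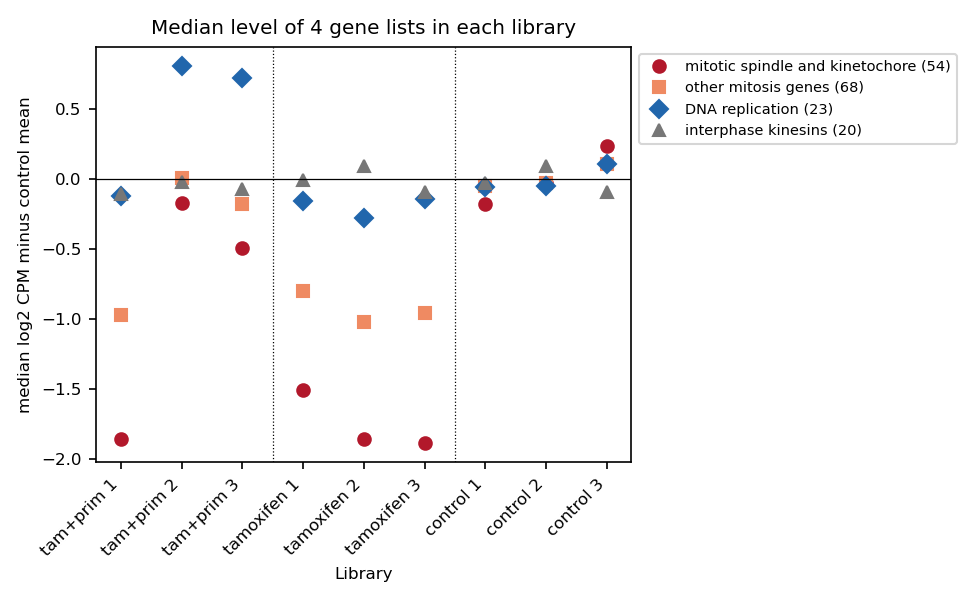
Median over the genes of 4 lists of the log2 CPM relative to the mean of the 3 control libraries (vertical axis) in each of the 9 libraries (horizontal axis). The mitotic genes are lowest in the tamoxifen libraries and tamoxifen+primidone replicate 1, the DNA replication genes reach 0.81 and 0.72 in tamoxifen+primidone replicates 2 and 3, and the interphase kinesins stay near 0.

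Of 20 DREAM, MYB and E2F genes, which act upstream of the mitotic genes, 13 were negative in tamoxifen over control mice (median −0.14) and 0 were called. In tamoxifen+primidone over control mice 1 was called higher, against 2.14% of all genes tested. It was Rbbp4, a histone-binding subunit of the MuvB core (0.28 ± 0.07, edgeR adjusted p = 0.05 after rounding and under the threshold before it), a call that was lost with any single library left out. E2f8, an E2F factor that acts as a repressor, had 2.74, 11.5 and 8.43 CPM in tamoxifen+primidone libraries, 2.52, 2.43 and 3.19 CPM in tamoxifen libraries and 4.68, 6.16 and 8.82 CPM in control libraries. Its tamoxifen libraries lay below its control libraries (−1.27 ± 0.46, edgeR adjusted p = 0.19), and in tamoxifen+primidone over tamoxifen mice it was at 1.47 ± 0.46 (edgeR adjusted p = 0.21). With tamoxifen+primidone replicate 1 left out, E2f8 was called lower in tamoxifen than in control mice (−1.27 ± 0.27, edgeR adjusted p = 0.038) and higher in tamoxifen+primidone than in tamoxifen mice (1.87 ± 0.29, edgeR adjusted p = 0.027). Mybl2 had 2.17, 6.59 and 3.75 CPM in tamoxifen+primidone libraries, 1.39, 1.49 and 1.99 CPM in tamoxifen libraries and 1.91, 2.76 and 2.08 CPM in control libraries. It was at 1.36 ± 0.39 in tamoxifen+primidone over tamoxifen mice (edgeR adjusted p = 0.19), and at 1.67 ± 0.34 (edgeR adjusted p = 0.071) without tamoxifen+primidone replicate 1. Cyclin D2 (Ccnd2), which carries cells through G1 phase with Cdk4 and Cdk6, had 56.4, 62.6 and 63.5 CPM in tamoxifen+primidone libraries, 39, 39.1 and 39.6 CPM in tamoxifen libraries and 47.9, 45 and 41.3 CPM in control libraries. All 3 tamoxifen+primidone libraries were above the rest, and Ccnd2 was higher in tamoxifen+primidone than in control mice (log2 fold change 0.44 ± 0.08, edgeR adjusted p = 0.02). Against tamoxifen mice its value was 0.63 ± 0.08 (edgeR adjusted p = 0.052), and without tamoxifen+primidone replicate 1 it was called higher (0.68 ± 0.09, edgeR adjusted p = 0.012). Cdk4 was higher than in control mice as well (0.36 ± 0.08, edgeR adjusted p = 0.041).

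Of 7 inhibitors of cyclin-dependent kinases 0 were called in any comparison with all 9 libraries. Cdkn1a (p21) had 33.6, 28.3 and 27.8 CPM in tamoxifen+primidone libraries, 49.1, 49.1 and 48.2 CPM in tamoxifen libraries and 38.8, 38.4 and 33.1 CPM in control libraries. The tamoxifen libraries were above all others, with log2 fold changes of 0.41 ± 0.1 over control mice (edgeR adjusted p = 0.076) and of −0.71 ± 0.1 in tamoxifen+primidone over tamoxifen mice (edgeR adjusted p = 0.052). Without tamoxifen+primidone replicate 1, Cdkn1a was called in both, at 0.41 ± 0.09 over control mice (edgeR adjusted p = 0.038, where 1.1% of all genes tested were called higher) and at −0.8 ± 0.1 in tamoxifen+primidone over tamoxifen mice (edgeR adjusted p = 0.012, where 0.15% were called lower). Kinesins that carry cargo outside mitosis had a median of 0.00 in tamoxifen over control mice over 20 genes, with 0 called, against −1.97 for the mitotic kinesins. In tamoxifen+primidone over control mice 1 of the 20 was called higher (Kif26b, 0.8 ± 0.2, edgeR adjusted p = 0.049) and 1 lower (Kif16b, −0.49 ± 0.12, edgeR adjusted p = 0.043). Of all genes tested, 2.14% were called higher and 3.21% lower there. The calls over control of Pola1, Ccnd2, Cdk4, Kif26b and Kif16b were each lost without control replicate 1, control replicate 3 or tamoxifen+primidone replicate 2, and some of them without other single libraries.

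Markers of other cell types were measured in the same libraries, and edgeR called 0 of them in tamoxifen+primidone against tamoxifen mice. Only 2 of all 15186 genes tested were called there, so the 0 does not show that the markers were alike. Of all genes tested, edgeR called 2.14% higher and 3.21% lower in tamoxifen+primidone than in control mice. In tamoxifen against control mice these shares were 0.573% and 0.961%. The 9 epithelial markers summed to 2900 to 3460 CPM in tamoxifen+primidone libraries, 3960 to 4270 CPM in tamoxifen libraries and 3670 to 3940 CPM in control libraries, and 1 was called, Cldn4, lower in tamoxifen+primidone than in control mice (−0.31 ± 0.08, edgeR adjusted p = 0.047). The 8 stromal markers summed to 8890 to 10600 CPM in tamoxifen+primidone libraries, 10700 to 11000 CPM in tamoxifen libraries and 9340 to 12000 CPM in control libraries, and 1 was called, Hand2, higher in tamoxifen+primidone than in control mice (0.7 ± 0.1, edgeR adjusted p = 0.0078). The 8 smooth muscle markers summed to 5670 to 7040 CPM in tamoxifen+primidone libraries, 6030 to 7310 CPM in tamoxifen libraries and 7350 to 11800 CPM in control libraries. All 8 were negative in tamoxifen over control mice with 0 called, and all 8 were negative in tamoxifen+primidone over control mice with 2 called lower, Actg2 (−1.18 ± 0.22, edgeR adjusted p = 0.021) and Myh11 (−0.69 ± 0.16, edgeR adjusted p = 0.036). The 6 endothelial markers summed to 394 to 441 CPM in tamoxifen+primidone libraries, 385 to 458 CPM in tamoxifen libraries and 400 to 478 CPM in control libraries, with 0 called.

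The 9 markers of T and NK cells summed to 44.3 to 49.7 CPM in tamoxifen+primidone libraries, 36.1 to 49.9 CPM in tamoxifen libraries and 22.2 to 27.9 CPM in control libraries. Of these, 2 were called higher in tamoxifen+primidone than in control mice (Il2rb and Nkg7) and 1 higher in tamoxifen than in control mice (Il2rb), where 0.573% of all genes tested were called higher. The 6 markers of B and plasma cells summed to 1550 to 2720 CPM in tamoxifen+primidone libraries, 1250 to 1740 CPM in tamoxifen libraries and 1470 to 1550 CPM in control libraries, with Mzb1 called higher in tamoxifen+primidone and in tamoxifen than in control mice. The 6 macrophage markers summed to 468 to 743 CPM in tamoxifen+primidone libraries, 565 to 804 CPM in tamoxifen libraries and 478 to 562 CPM in control libraries, and 1 was called, Cd68, lower in tamoxifen+primidone than in control mice (−0.59 ± 0.13, edgeR adjusted p = 0.034). The 6 neutrophil markers summed to 31.8 to 75.1 CPM in tamoxifen+primidone libraries, 59.9 to 65.6 CPM in tamoxifen libraries and 15.8 to 43.8 CPM in control libraries. All 5 that passed the filter were positive in tamoxifen over control mice (median 0.89) with 0 called.

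The 6 erythroid markers summed to 185 to 537 CPM in tamoxifen+primidone libraries, 231 to 334 CPM in tamoxifen libraries and 67.5 to 223 CPM in control libraries, with 1 called higher in tamoxifen+primidone than in control mice. The 5 adipocyte markers were widely scattered, at 52.5 to 252 CPM in tamoxifen+primidone libraries, 27.5 to 200 CPM in tamoxifen libraries and 23.1 to 28 CPM in control libraries. The 4 mesothelial markers summed to 124 to 150 CPM in tamoxifen+primidone libraries, 91.2 to 140 CPM in tamoxifen libraries and 69.5 to 85.4 CPM in control libraries, with 3 called higher in tamoxifen+primidone and 1 in tamoxifen than in control mice. The 8 liver genes summed to 201 to 204 CPM in tamoxifen+primidone libraries, 96.2 to 191 CPM in tamoxifen libraries and 51.5 to 59.8 CPM in control libraries, and 8 were called higher in tamoxifen+primidone (7 without tamoxifen+primidone replicate 1) and 5 in tamoxifen than in control mice. Of all genes tested, 2.14% were called higher in tamoxifen+primidone and 0.573% in tamoxifen than in control mice. The 6 ovary and oviduct markers summed to 4.29, 3.57 and 3.24 CPM in tamoxifen+primidone libraries, 270, 66 and 127 CPM in tamoxifen libraries and 4.29, 38.9 and 17.1 CPM in control libraries, with 0 of the 4 tested called. Nearly all of this was Ovgp1, the glycoprotein secreted by the oviduct, at 0.982, 0.684 and 0.906 CPM in tamoxifen+primidone libraries, 267, 61.9 and 124 CPM in tamoxifen libraries and 1.18, 36.5 and 13.4 CPM in control libraries. Its log2 fold change was 3.15 ± 1.04 in tamoxifen over control mice (edgeR adjusted p = 0.18) and −7.46 ± 1.35 in tamoxifen+primidone over tamoxifen mice (edgeR adjusted p = 0.12). Without tamoxifen+primidone replicate 1, the number of markers called in tamoxifen+primidone against control mice was 0 for the epithelial, B and plasma cell, macrophage, erythroid and mesothelial lists, 1 for smooth muscle and for stroma, and 2 for T and NK cells. Without that library 1.73% of all genes tested were called higher and 2.1% lower. No marker found in the table was at 0 in all 9 libraries.

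Of 15 estrogen-responsive genes tested, the median relative to the control mean was −0.68, −0.41 and −0.40 in tamoxifen+primidone libraries and −0.24, 0.02 and 0.01 in tamoxifen libraries, with replicate 1 the lowest of the tamoxifen+primidone libraries here too. In tamoxifen+primidone against control mice 4 of the 15 were called lower, against 3.21% of all genes tested. They were lactoferrin (Ltf, −1.04 ± 0.18, edgeR adjusted p = 0.014), Muc1 (−0.68 ± 0.14, edgeR adjusted p = 0.025), Greb1 (−1.07 ± 0.25, edgeR adjusted p = 0.046) and Padi2 (−0.79 ± 0.2, edgeR adjusted p = 0.048). The number was 2 without tamoxifen+primidone replicate 1, against 2.1% of all genes tested. In tamoxifen against control mice 1 was called higher, Sprr2f (1.14 ± 0.18, edgeR adjusted p = 0.023), against 0.573% of all genes tested. The part of these markers in the levels of the mitotic genes was not tested.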

How the data were processed

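RNA sequencing was done on the uterus of 9 mice, 3 per group, with group and replicate number of each library read from its title. Per the submitters' processing notes, the tools were HISAT2, HTSeq, DESeq2 and R 3.2.0, and the genome build was GRCm39. Which tool did what, the annotation and the strand setting are not stated there. Raw read counts for 18094 gene symbols were deposited by the authors, together with FPKM values for the same genes in which counts are scaled for depth and gene length. Lengths recovered from the deposited counts and FPKM were the same in all 9 libraries within 1 base for 100% of the genes.

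Counts were tested with edgeR 4.0.16 in R 4.3.3 (quasi-likelihood test, TMM normalization, default low-count filter by group), with all 9 libraries in a single fit and a coefficient per group. Tests were two-sided, and p-values were adjusted by Benjamini-Hochberg over the 15186 genes tested, with 0.05 as the threshold. Biological variation between replicates had a common coefficient of 0.2026. The approximate standard error was obtained from the log2 fold change and the F statistic, as their ratio after taking the root of F. Replicates of a group differed beyond counting noise (chi-square per degree of freedom 19.57 to 78.47), so none was counted as a repeat. The labels do not say how the mice were housed or processed, and p-values measure the spread between these samples. Alternatives were DESeq2 1.42.0, limma 3.58.1 on log2(FPKM + 1) and log2(FPKM + 0.1), other size factors and filters, the 6 compared libraries alone, a replicate block, and each library left out; leaving out libraries in the count of non-overlapping ranges was chosen after seeing the data.

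The members and the other gene lists were chosen with earlier results of these data known. Values in every library are given for Mki67, Top2a, Cdk1 and Ccnb1, for the 2 members of each role with the highest mean FPKM, for members called in any comparison, and for the 5 with the smallest difference in tamoxifen against control mice. From each other list up to 4 genes with the smallest p in a comparison were eligible to be named. Cenph and Birc5 are shown in every library as well, a choice made once their values were known. Promoter sequences are RefSeq's for GRCm38.p6, matched by symbol.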

Additional observations from a re-analysis of the deposited data

How the results depend on the processing

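The direction of the mitotic list held under every alternative run, but the number of its genes called did not. In tamoxifen against control mice, 17 members of the list and 233 genes in all were called. DESeq2 called 48 and 1112, the 6 compared libraries alone 46 and 546, and limma on log2(FPKM + 1) without a filter 5 and 143. The median of the list was −1.08 under limma on log2(FPKM + 1), with and without the filter, a scale that understates changes of low genes. With single libraries left out, 1 to 47 members and 22 to 439 genes were called. In tamoxifen+primidone against tamoxifen mice, with 0 members and 2 genes called, DESeq2 called 21 and 578. Genes called were 9 with RLE size factors, 21 without the low-count filter, 1 with limma on log2(FPKM + 1) or log2(FPKM + 0.1) and 0 with limma without a filter. Single libraries left out gave 0 to 25 members, 0 to 85 genes, and 9 to 52 members with ranges that did not overlap. In tamoxifen+primidone against control mice, with 1 member and 812 genes called, DESeq2 called 11 and 1882 and limma on log2(FPKM + 1) called 3 and 947. Single libraries left out gave 0 to 2 members, 122 to 800 genes and 24 to 38 members with ranges that did not overlap. The cause of these differences was not tested, apart from the smaller number of libraries when some are left out.

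The replicate numbers showed no clear pairing of the samples. Over 9 same-numbered pairs the correlation of deviations ran from −0.134 to 0.177, with 3 over 0.1. Over pairs with different numbers it ran from −0.291 to 0.158. With 3 libraries per group, this check cannot show whether samples shared a batch. With a replicate block, edgeR called 14 members and 317 genes in tamoxifen against control mice, 0 and 53 in tamoxifen+primidone against tamoxifen mice, and 1 and 984 in tamoxifen+primidone against control mice.

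Some log2 fold changes changed sign with single libraries left out. In tamoxifen over control mice the ranges were −0.02 to 0.25 for Cenpk, −0.11 to 0.08 for Pola1 and −0.2 to 0.21 for Kif26b. In tamoxifen+primidone over tamoxifen mice they were −0.04 to 0.83 for Aurka, −0.07 to 0.58 for Melk, −1.73 to 3.09 for Ncapg, −0.22 to 0.1 for Pttg1 and −1.0 to 0.15 for Fam184b. In tamoxifen+primidone over control mice they were −0.59 to 0.06 for Cdk1, −0.82 to 0.19 for Pbk, −0.49 to 0.26 for Top2a, −0.52 to 0.07 for Ncaph, −0.5 to 0.13 for Cdca2, −0.76 to 0.01 for Spc24, −0.71 to 0.11 for Ttk, −0.74 to 0.16 for Aurkb, −0.27 to 0.03 for Incenp, −0.47 to 0.12 for Cdca8, −0.77 to 0.03 for Ect2, −0.66 to 0.08 for Foxm1 and −0.23 to 0.6 for E2f8. For these 13 the positive end is the value without tamoxifen+primidone replicate 1.

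Depth limits mainly Cdc25c, whose lowest count in a library was 8. With 3 mice per group, calls depend on the spread of single libraries, and whole-tissue RNA does not show which cells divide.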
